A study of Mus musculus with 36 samples.

Results

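The Dppa genes are a group of mouse genes named for their association with pluripotency during development. The group described here is the 4 genes Dppa2, Dppa3, Dppa4 and Dppa5a, chosen by symbol from the 25239 genes of the P-body and cytoplasm table. No cutoff on a measured value was used, but earlier results of these data were known when the genes were chosen. All 4 were also listed among the 25229 genes of the polysome table and the 48440 genes of the Ago2 knockout (KO) table. For each gene, the level, the P-body enrichment in embryonic stem (ES) cell states and the ribosome occupancy were examined.

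The series holds 36 RNA sequencing libraries in 16 groups. P-bodies are membraneless bodies of RNA and protein in the cytoplasm. P-body-seq is the sequencing of RNA from P-bodies sorted as fluorescent particles and of RNA from the cytoplasmic fraction. That fraction was a resuspended pellet of the lysate, sampled before the sort, so it still held P-bodies. The fractions came from 5 kinds of cells with 2 libraries per fraction. Naive ES cells were kept with 2 kinase inhibitors and LIF. Primed ES cells were derived from them with activin A and FGF2. Both were v6.5 cells, an ES cell line from a cross of C57BL/6 and 129S4Sv/Jae mice, and carried GFP-LSM14A from a lentivirus with an EF1a promoter, so that P-bodies were marked in all of these groups. Mouse embryonic fibroblasts (MEFs) carried a doxycycline-inducible cassette of the reprogramming factors Oct4, Klf4, Sox2 and Myc, the reverse transactivator at Rosa26 and a Pou5f1 reporter. The same cells were also collected 3 days into reprogramming, either as controls or with Nudt21 knocked down. A separate table held P-body and cytoplasm libraries of naive Ago2 KO ES cells, which came from a single-cell clone of the v6.5 line. Another table held polysome-bound and total RNA, with 3 libraries each, of control and DDX6-depleted naive ES cells. Polysome here follows the sample labels. By the paper's account this RNA was a pool of the gradient fractions that held ribosomes, which the paper does not limit to polysomes. DDX6, an RNA helicase needed for P-bodies, was removed through an FKBP12 degron at the Ddx6 locus by treatment with a dTAG compound for several hours. By the paper's account, control cells were degron cells without the dTAG compound, and both were treated with cycloheximide before harvest. Degron cells were single-cell clones that also carried GFP-LSM14A. The study describes the libraries of a sequencing experiment as biological replicates, and the labels say nothing more of how they were separated, so the p-values below measure the spread between these libraries.

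The proteins made by these genes act at different levels. DPPA2 and DPPA4 are nuclear proteins with a SAP domain. They work as a pair on chromatin, occupy promoters that carry both activating and repressive histone marks, and act upstream of the genes of the 2-cell-like state, a rare state of ES cells that resembles the early embryo. DPPA3, also called Stella or PGC7, is a maternal factor of the oocyte that keeps UHRF1 away from chromatin and so shields DNA from methylation. DPPA5A, also called ESG1, is an RNA-binding protein with a KH domain that is abundant in pluripotent cells.

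Dppa4 and Dppa2 are neighbours on chromosome 16. In the GENCODE M21 annotation of GRCm38, the assembly also known as mm10, Dppa4 spans chr16:48283733-48294237 and Dppa2 spans chr16:48303908-48319723, both on the plus strand, with 9670 bases between them. Dppa3 spans chr6:122626410-122630272 on the plus strand. Dppa5a spans chr9:78367052-78368177 on the minus strand. The transcripts used here measure 1948 bases for Dppa2 in 7 exons, 1479 bases for Dppa4 in 7 exons, 833 bases for Dppa3 in 4 exons and 619 bases for Dppa5a in 3 exons. All are short for protein-coding genes, of which 33.7% were shorter than Dppa2, 22.3% shorter than Dppa4, 7.2% shorter than Dppa3 and 3.8% shorter than Dppa5a. GC content was 43.9% in Dppa2, 45.3% in Dppa3, 49.0% in Dppa4 and 49.4% in Dppa5a.

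Each of the 4 transcripts has copies elsewhere in the genome, among them annotated pseudogenes of Dppa3 and Dppa5a. This bears on how reads can be assigned. Of all stretches of 50 bases, 36.7% in Dppa2, 35.9% in Dppa4, 17.7% in Dppa3 and 38.6% in Dppa5a also occurred in the exons of at least 1 other gene. The pseudogenes Dppa5b (chr9:78245550-78246135) and Dppa5c (chr9:78271998-78272583) lie on the same chromosome as Dppa5a. They were the only copies aligned here, and were 97.0% identical to Dppa5a over 297 aligned bases of its 619. A stretch of 30 bases shows how little separates them. It starts at position 93 of the Dppa5a transcript, counted from 1 at the 5′ end, and the capital letter marks the substitution T108C that both pseudogenes carry.
Dppa5a: cgtgacccgtaaagaTatccccccgtgggt
Dppa5b: cgtgacccgtaaagaCatccccccgtgggt
Dppa5c: cgtgacccgtaaagaCatccccccgtgggt
In the Ago2 KO table, which lists most of these copies, they held at most 0.56% of the combined reads of Dppa2 and its copies, 0.392% for Dppa4, 0.225% for Dppa3 and 0.0726% for Dppa5a. Elsewhere 1 copy of Dppa5a was listed, with at most 0.0237% of the combined reads in any ES cell library, and the copies of the other genes were not listed. The values of all 4 genes are therefore uncertain to the extent that reads of the copies were assigned to them.

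Naive and primed fractions held 6769731 to 12772246 reads per library, MEF and day 3 fractions 19384742 to 31185874, polysome and total RNA 13308782 to 29362195 and Ago2 KO fractions 15624401 to 17486268. The cell labels were checked against marker genes. The 8 naive markers summed to 1962 to 2183 counts-per-million (CPM) in naive libraries and 132 to 176 CPM in primed libraries, and the 8 primed markers to 45.8 to 103 CPM in naive and 517 to 753 CPM in primed libraries. The 8 fibroblast markers reached 35340.0 and 38500.0 CPM in MEF cytoplasm against at most 77.8 CPM in naive or primed libraries. Nudt21 mRNA stood at 4.99 to 5.94 CPM in knockdown libraries and at 89.1 to 115 CPM in day 3 controls, and Ago2 mRNA at 2.57 to 4.52 CPM in the Ago2 KO libraries. The degron acts on the DDX6 protein, so mRNA does not check those labels. In 2 groups the replicates stood apart for the Dppa genes. All 4 genes were higher in naive cytoplasm replicate 2 than in replicate 1, and all 4 were higher in Ago2 KO cytoplasm replicate 1 than in replicate 2. Values of the Dppa genes that rest on these groups are given with and without each of these libraries. In a fit that leaves out 1 library of a pair, the spread comes from the remaining pairs and the lone library is assumed to vary like them.

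To place the 4 genes on a common scale, levels are given as CPM per kb of transcript, with the library total as the denominator. Dppa5a was by far the highest of the 4 in every ES cell library. In naive cytoplasm it stood at 5056 and 7395 CPM per kb, which ranked it 9th and 4th among all genes by CPM in those libraries. In primed cytoplasm it stood at 2267 and 2017 CPM per kb. The naive levels of the other members overlapped, at 53.7 and 124 CPM per kb for Dppa2, 70.2 and 104 for Dppa3 and 44.4 and 60.2 for Dppa4, and these 3 genes did not separate beyond their spread. In primed cytoplasm Dppa4 came next after Dppa5a, at 71.2 and 72.0 CPM per kb. Dppa2 at 52.0 and 46.5 and Dppa3 at 48.3 and 41.2 CPM per kb followed and overlapped.

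**Figure D1:**
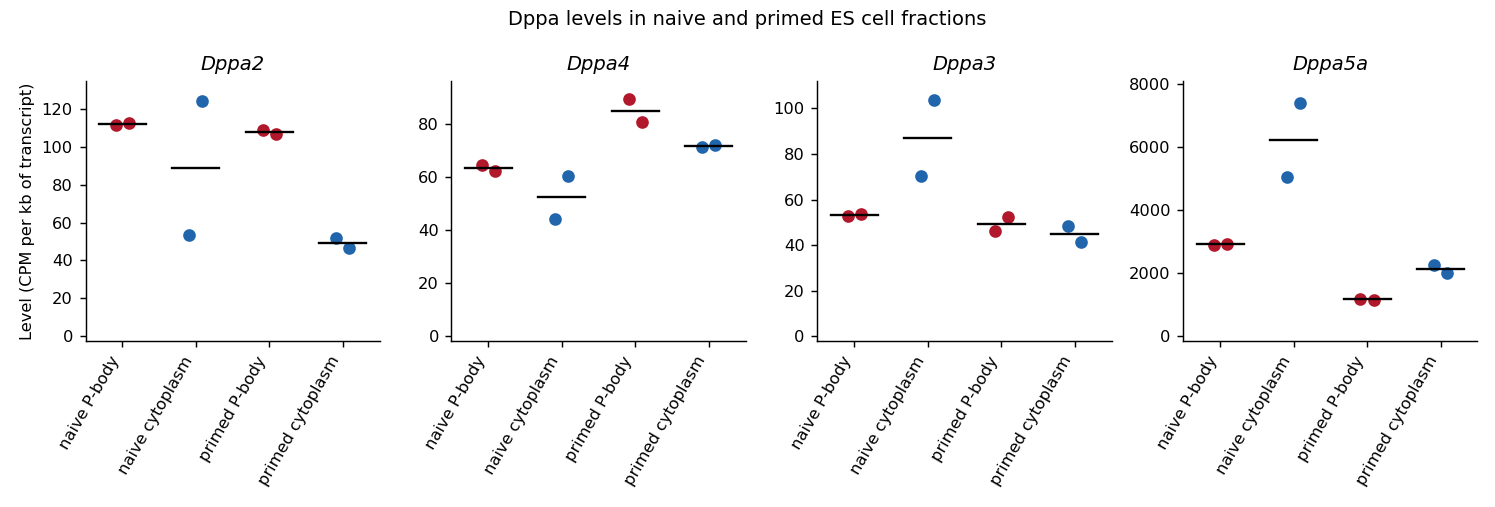
Levels of the 4 Dppa genes in naive and primed ES cell fractions, in CPM per kb of transcript on linear axes that start at 0. Each point is 1 library (red, P-body; blue, cytoplasm), and the black line is the mean of the 2 libraries of a group. P-body replicates lie close together for every gene, whereas the naive cytoplasm replicates of Dppa2 lie at 53.7 and 124 CPM per kb.

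The cytoplasm of naive and primed cells was compared to ask which of the 4 genes differ with cell state. Dppa5a and Dppa3 were called higher in naive cytoplasm. In this comparison 43.8% of 16125 tested genes were called at a Benjamini-Hochberg adjusted p under 0.05 by edgeR, 22.1% of all tested genes as higher in naive cells, and 2 of the 4 Dppa genes were, both as higher. Dppa5a had a log2 fold change (log2 (FC)) of 1.73 ± 0.18 (SE, n = 2 against 2), a fold of 3.32, with an edgeR adjusted p of 0.001272. Dppa3 had a log2 (FC) of 1.15 ± 0.2, with an edgeR adjusted p of 0.006967. Every naive value of both genes lay above every primed value. Without naive cytoplasm replicate 1 the values were 1.94 for Dppa5a and 1.37 for Dppa3, without replicate 2 they were 1.46 and 0.87, and both genes stayed called. Without either primed cytoplasm library Dppa3 was no longer called, at 1.26 without replicate 1 and 1.03 without replicate 2 (edgeR adjusted p = 0.05477 and 0.07592). In bulk RNA, fewer cells with a transcript and less of it per cell cannot be told apart.

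Dppa2 and Dppa4, the neighbouring genes, took different values in the same comparison. Dppa2 was at 53.7 and 124 CPM per kb in naive and 52.0 and 46.5 in primed cytoplasm, with a log2 (FC) of 1.04 ± 0.35 and an edgeR adjusted p of 0.05539, which did not pass the threshold. Its value followed the naive library used, at 1.49 without naive cytoplasm replicate 1 and 0.35 without replicate 2, and in both cases it was called, with the spread taken from the primed pair alone. Dppa4 had a log2 (FC) of −0.26 ± 0.16, with a 95% confidence interval of −0.64 to 0.12 and an edgeR adjusted p of 0.2234. Without naive cytoplasm replicate 1 the value of Dppa4 was −0.09 and was not called, and without replicate 2 it was −0.47 and was called. The P-body libraries of the 2 states, which replicated closely, gave the same order. Dppa5a was higher in naive P-bodies at a log2 (FC) of 1.55 ± 0.03, followed by Dppa3 at 0.34 ± 0.084 and Dppa2 at 0.29 ± 0.044, and Dppa4 was lower at −0.20 ± 0.061. All 4 were called there, among 67.9% of 16177 tested genes, although Dppa4 lost its call without naive P-body replicate 2, at −0.17, or primed P-body replicate 1, at −0.13. With library totals in place of TMM scaling, Dppa2 and Dppa3 were not called, at 0.06 and 0.11, and in 1 fit of all groups of the table Dppa2, Dppa3 and Dppa4 were not called, at 0.44, 0.49 and −0.05.

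P-body RNA was then compared with the cytoplasm of the same cells, to ask which of these transcripts are enriched in P-bodies. The cytoplasm was sampled before the sort and still held P-bodies, so the ratio does not give the share of a transcript held there. The cytoplasm and P-body libraries are those of the comparison between states, so these values are not independent of it. In naive cells Dppa5a was P-body-depleted and Dppa4 was P-body-enriched. These were 2 of the 4 genes, where 38% of 15630 tested genes were called. Dppa5a stood at 2895 and 2928 CPM per kb in P-bodies against 5056 and 7395 in cytoplasm, with no overlap. Its log2 (FC) was −0.87 ± 0.17, a fold of 0.548, with an edgeR adjusted p of 0.01252, and 15.3% of the tested genes had a lower value. Dppa4 stood at 64.5 and 62.4 CPM per kb in P-bodies against 44.4 and 60.2 in cytoplasm. This gave a log2 (FC) of 0.51 ± 0.15, with an edgeR adjusted p of 0.04464. The P-body values of Dppa4 lay above both cytoplasm values, but only narrowly above replicate 2.

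The other 2 members were not called in naive cells. Dppa3 stood at 52.8 and 53.7 CPM per kb in naive P-bodies against 70.2 and 104 in cytoplasm, so that its groups did not overlap. It had a log2 (FC) of −0.48 ± 0.18, with an edgeR adjusted p of 0.09263. Dppa2 stood at 112 and 113 CPM per kb in naive P-bodies, between the cytoplasm values of 53.7 and 124. Its log2 (FC) was 0.57 ± 0.35, with a 95% confidence interval of −0.31 to 1.45 and an edgeR adjusted p of 0.252.

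The naive values depended on the cytoplasm library. Without naive cytoplasm replicate 1, log2 (FC) was 0.11 for Dppa2, 0.33 for Dppa4, −0.70 for Dppa3 and −1.08 for Dppa5a, and without replicate 2 it was 1.26, 0.71, −0.20 and −0.60 in the same order. All 4 genes kept their direction and were called in both of these fits, where the spread was estimated from the P-body libraries alone and a lone library was assumed to vary like them. Without either P-body library none of the 4 was called, with an edgeR adjusted p of 0.1335 and 0.1317 for Dppa5a. With library totals in place of TMM scaling, Dppa4 fell to 0.28 and lost its call, and Dppa3 was called at −0.70. Dppa4 was also not called in 1 fit of all groups of the table, at 0.51.

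In primed cells, where the cytoplasm replicates lay closer together, 3 of the 4 genes were called, among 50.8% of 16177 tested genes. Dppa2 was P-body-enriched, Dppa4 was enriched to a lesser degree, and Dppa5a was P-body-depleted. Dppa2 stood at 109 and 107 CPM per kb in primed P-bodies and at 52.0 and 46.5 in cytoplasm. This gave a log2 (FC) of 1.17 ± 0.07, a fold of 2.25, with an edgeR adjusted p of 4.022e-08, and 90.7% of the tested genes had a lower value. Dppa4 stood at 89.4 and 80.7 CPM per kb in P-bodies and at 71.2 and 72.0 in cytoplasm. It had a log2 (FC) of 0.28 ± 0.076, with an edgeR adjusted p of 0.007349, and it was not called without primed P-body replicate 1, at 0.21, or in 1 fit of all groups of the table, at 0.31 (edgeR adjusted p = 0.3542).

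Dppa5a in primed cells stood at 1184 and 1154 CPM per kb in P-bodies and at 2267 and 2017 in cytoplasm. Its log2 (FC) was −0.84 ± 0.052, with an edgeR adjusted p of 5.115e-08, and 13.2% of the tested genes had a lower value. Its depletion was called in primed cells whichever library was left out, with values of −0.92 to −0.76. Dppa3 stood at 46.4 and 52.3 CPM per kb in primed P-bodies and at 48.3 and 41.2 in cytoplasm, and these values overlapped. This gave a log2 (FC) of 0.18 ± 0.11, with a 95% confidence interval of −0.06 to 0.43 and an edgeR adjusted p of 0.198.

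**Figure D2:**
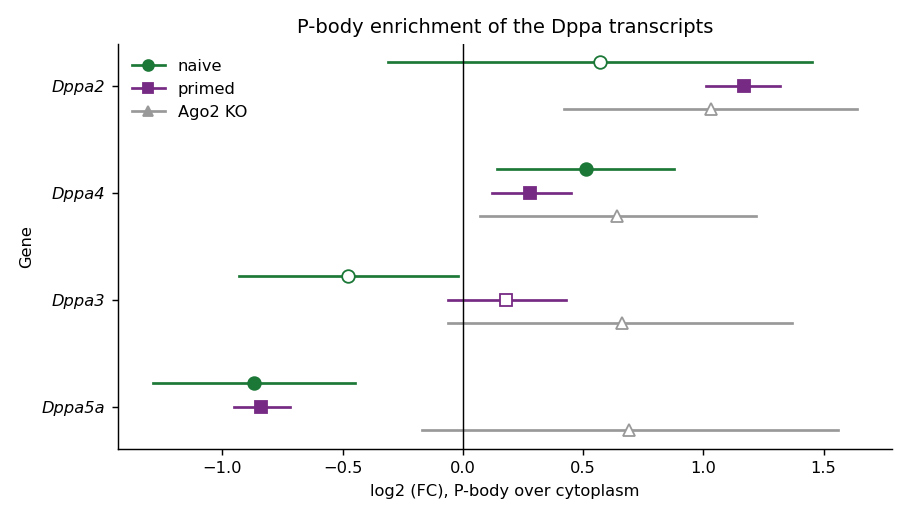
P-body enrichment of the 4 Dppa transcripts in naive, primed and Ago2 KO ES cells, as log2 (FC) of P-body over cytoplasm with 95% confidence intervals from edgeR. Filled symbols passed an adjusted p of 0.05. Dppa5a lies at −0.87 and −0.84 in naive and primed cells, and the Ago2 KO values come from a separately processed table.

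The difference in enrichment between the states was tested as an interaction over the 8 libraries. It was called for 1 of the 4 genes, Dppa3, and for 25.3% of 17199 tested genes. The enrichment of Dppa3 was lower in naive than in primed cells by a log2 (FC) of −0.80 ± 0.24, with an edgeR adjusted p of 0.0373. This call was kept under 5 alternative settings and lost under 10, among them DESeq2 size factors at −0.72 and no filter on low counts at −0.68 (edgeR adjusted p = 0.05698 and 0.05163). For Dppa5a the difference was −0.17 ± 0.19, with a 95% confidence interval of −0.60 to 0.26. For Dppa4 it was 0.08 ± 0.17, with an interval of −0.32 to 0.48. For Dppa2 it was −0.74 ± 0.4, with an interval of −1.64 to 0.17 and an edgeR adjusted p of 0.2174. The Dppa2 difference was −1.20 and called without naive cytoplasm replicate 1, and −0.06 and not called without replicate 2. Without naive cytoplasm replicate 1 the difference was −0.39 for Dppa5a, −0.09 for Dppa4 and −1.02 for Dppa3. Without replicate 2 it was 0.09, 0.28 and −0.53 in that order, so the sign for Dppa5a and Dppa4 followed the library left out.

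Ago2 KO ES cells lack AGO2, an Argonaute protein that acts with microRNAs, and their P-body and cytoplasm libraries were compared in the same way. Here 0 of the 4 genes were called by edgeR, where 6.51% of 16808 tested genes were called. With the replicate number fitted as a block, Dppa2, Dppa3 and Dppa4 were called, at 1.05, 0.71 and 0.66. That fit called 4178 genes in place of 1095. The study sorted P-bodies from the cytoplasmic fraction stored beside them, but the labels do not say that equal numbers mark such pairs. Without the block, Dppa2 and Dppa4 passed an unadjusted p under 0.05, and Dppa2 was called by DESeq2. Dppa2 stood at 69.0 and 73.4 CPM per kb in P-bodies and at 42.0 and 26.9 in cytoplasm. It had a log2 (FC) of 1.03 ± 0.27, with an edgeR adjusted p of 0.05655. Dppa4 stood at 56.9 and 55.4 CPM per kb in P-bodies against 43.0 and 27.9 in cytoplasm, for a log2 (FC) of 0.64 ± 0.25. For both neighbours every P-body value lay above every cytoplasm value.

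Dppa3 and Dppa5a, the members with negative values in naive cells, had positive values in the Ago2 KO table. Without the replicate block these did not pass. Dppa3 stood at 42.7 and 33.9 CPM per kb in P-bodies against 32.4 and 15.8 in cytoplasm, with a log2 (FC) of 0.66 ± 0.32 and an edgeR adjusted p of 0.2445. Dppa5a stood at 15995 and 11658 CPM per kb in P-bodies against 11474 and 5539 in cytoplasm, with a log2 (FC) of 0.69 ± 0.38 and an edgeR adjusted p of 0.3076. The lower P-body value of Dppa5a exceeded the higher cytoplasm value only slightly. Without Ago2 KO cytoplasm replicate 1 all 4 genes were called, at 1.18 for Dppa2, 0.78 for Dppa4, 1.05 for Dppa3 and 1.10 for Dppa5a, with the spread taken from the P-body pair alone. Without replicate 2 the values were 0.77, 0.40, 0.26 and 0.29 in that order and Dppa2 alone was called. The Ago2 KO table was made with another counting tool and gene annotation and holds no library of cells with Ago2, so the difference from the naive values was not tested.

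The reads of Dppa2 per read of Dppa4 were compared within each library, since this ratio does not depend on library scaling. In primed cytoplasm the ratio was 0.962 and 0.851, the lowest of all ES cell groups. In primed P-bodies it was 1.6 and 1.74. In naive cells it was 2.28 and 2.38 in P-bodies and 1.59 and 2.72 in cytoplasm, so that the cytoplasm values lay on both sides of the P-body values. In Ago2 KO cells it was 1.59 and 1.74 in P-bodies against 1.29 and 1.27 in cytoplasm. In primed and Ago2 KO cells each P-body value lay above each cytoplasm value. Of 9918 genes with a mean of at least 10 CPM over the 8 naive and primed libraries, those whose log2 CPM followed Dppa2 most closely were Lyplal1, Nup62cl and Cd55, with Pearson's r of 0.991, 0.982 and 0.966. For Dppa4 they were Ybx1, Zfp54 and 4930430F08Rik (0.984, 0.979 and 0.975), for Dppa3 Mad2l1bp, Atp5j2 and Znrd1 (0.990, 0.989 and 0.988), and for Dppa5a Ppa1, Camkk2 and Slc49a4 (0.998, 0.997 and 0.995). Between the members, Pearson's r was 0.873 for Dppa3 with Dppa5a, 0.497 for Dppa2 with Dppa3, 0.440 for Dppa2 with Dppa4, 0.176 for Dppa2 with Dppa5a, −0.510 for Dppa3 with Dppa4 and −0.725 for Dppa4 with Dppa5a. These correlations describe 8 libraries that fall into 4 groups and share their scaling, and carry no test.

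**Figure D3:**
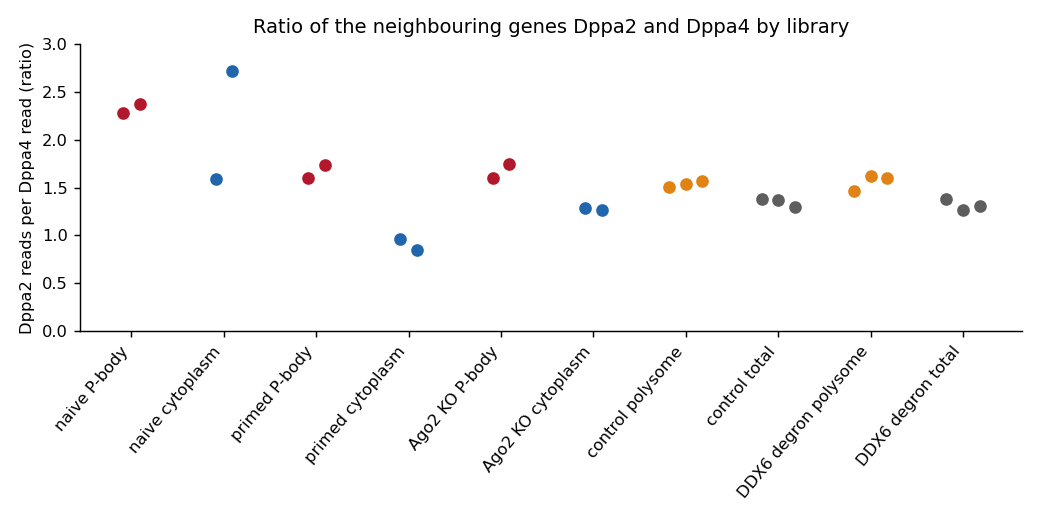
Reads of Dppa2 per read of its neighbour Dppa4 in each ES cell library (ratio, linear axis from 0). Each point is 1 library (red, P-body; blue, cytoplasm; orange, polysome; grey, total RNA). The ratio lies at 0.962 and 0.851 in primed cytoplasm and at 2.28 and 2.38 in naive P-bodies.

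Ribosome occupancy was taken as RNA of the polysome libraries, a pool of ribosome-containing fractions, over total RNA. It was first examined in control ES cells. Dppa5a, Dppa3 and Dppa2 were called higher in polysomes, 3 of the 4 genes, where 42.9% of 15411 tested genes were called and 18.8% were called higher. Dppa5a stood at 4108, 4193 and 4550.3 CPM per kb in polysomes and at 2594, 2698 and 2954 in total RNA. Its log2 (FC) was 0.47 ± 0.074 (n = 3 against 3), with an edgeR adjusted p of 5.986e-05, and 89.6% of the tested genes had a lower value. Dppa3 stood at 232, 215 and 263 CPM per kb in polysomes and at 157, 145 and 169 in total RNA. This gave a log2 (FC) of 0.43 ± 0.086, with an edgeR adjusted p of 0.0006826. Dppa5a and Dppa3 thus had separate polysome and total RNA groups, and both kept their call whichever library was left out.

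The neighbours Dppa2 and Dppa4 had lower ribosome occupancy than Dppa3 and Dppa5a by value, a difference that was not tested. Dppa2 stood at 68.0, 68.1 and 72.6 CPM per kb in polysomes and at 54.2, 54.7 and 50.8 in total RNA. It had a log2 (FC) of 0.22 ± 0.066, with an edgeR adjusted p of 0.0133, and without control polysome replicate 3 it was 0.16 and was not called. Dppa4 stood at 59.4, 58.3 and 61.0 CPM per kb in polysomes and at 51.7, 52.7 and 51.6 in total RNA. Its log2 (FC) after TMM scaling was 0.03 ± 0.063, with a 95% confidence interval of −0.11 to 0.16. With library totals as in these CPM values it was 0.20 and was called, but under that scaling the median of all genes rose from 0.0233 to 0.192 as well.

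**Figure D4:**
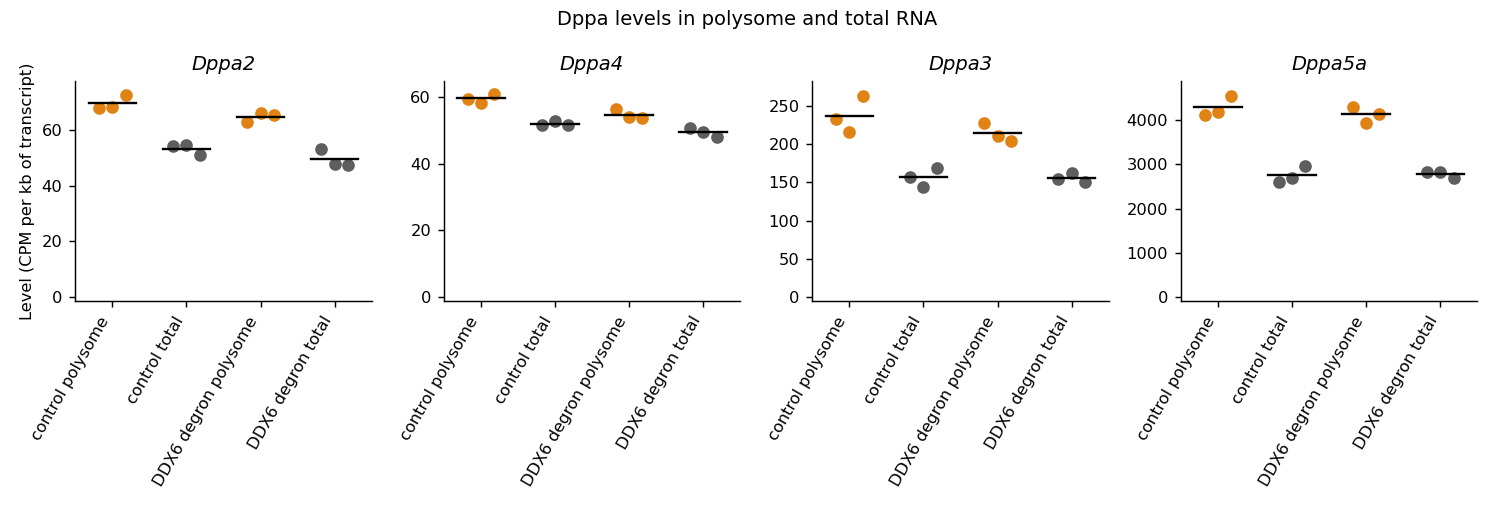
Levels of the 4 Dppa genes in polysome-bound and total RNA of control and DDX6 degron ES cells, in CPM per kb of transcript with library totals as the denominator (linear axes from 0). Each point is 1 of 3 libraries (orange, polysome; grey, total RNA), and the black line is their mean. Dppa3 polysome values are 204 to 263 and total RNA values 145 to 169 across both kinds of cells.

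After removal of DDX6 the order of the 4 genes was the same, and the same 3 genes were called, where 50.9% of 15638 tested genes were called and 24% were called higher. Dppa5a stood at 4300.5, 3940.2 and 4143 CPM per kb in polysomes and at 2821, 2817 and 2682 in total RNA, with a log2 (FC) of 0.39 ± 0.044. Dppa3 stood at 228, 211 and 204 CPM per kb in polysomes and at 154, 162 and 151 in total RNA, with a log2 (FC) of 0.28 ± 0.049. Dppa2 stood at 62.7, 66.2 and 65.1 CPM per kb in polysomes and at 53.2, 47.9 and 47.4 in total RNA, with a log2 (FC) of 0.21 ± 0.05. For these 3 genes the polysome values lay above the total RNA values in all libraries. Dppa4 had a log2 (FC) of −0.04 ± 0.049 after TMM scaling, with a 95% confidence interval of −0.14 to 0.07, and of 0.15 with library totals, where it was called.

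The change in ribosome occupancy with DDX6 loss was tested as an interaction over the 12 libraries. It was called for 0 of the 4 Dppa genes and 0 of all 16345 tested genes by edgeR, with 843 genes at an unadjusted p under 0.05, none of them a Dppa gene, and 4 genes by DESeq2, likewise without a Dppa gene. The difference was −0.15 ± 0.1 for Dppa3, with a 95% confidence interval of −0.36 to 0.07. For Dppa5a it was −0.09 ± 0.084 (−0.26 to 0.09), for Dppa4 −0.07 ± 0.074 (−0.22 to 0.09) and for Dppa2 −0.01 ± 0.081 (−0.18 to 0.15). Total RNA of degron and control cells was also compared, using the same total RNA libraries as the occupancy values. None of the 4 genes was called by edgeR or DESeq2 and none had an unadjusted p under 0.05, where 3.31% of 15380 tested genes were called by edgeR. Intervals of log2 (FC) in total RNA were −0.24 to 0.03 for Dppa2, −0.15 to 0.13 for Dppa3, −0.20 to 0.05 for Dppa4 and −0.10 to 0.13 for Dppa5a.

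Fibroblasts and cells at day 3 of reprogramming were examined to ask where the 4 genes are off and whether any appears early. In MEF cytoplasm Dppa3 and Dppa5a had 0 reads in both libraries, Dppa2 had 0 and 2 reads, and Dppa4 had 1 and 0.5 estimated reads. Against a floor of 3 reads over the group, naive cytoplasm held 78500-fold more Dppa5a and 1470-fold more Dppa3. The lower ends of the 95% exact Poisson intervals from 0 MEF reads were 63800-fold for Dppa5a and 1200-fold for Dppa3. For Dppa2 the ratio was 5280, with a 95% exact Poisson interval of 1460 to 43600 from the 2 MEF reads. For Dppa4 the ratio was 3150, with an interval of 655 to 19500, for which the 1.5 estimated MEF reads were taken as 2. Intervals and floors cover counting error only. With naive cytoplasm replicate 1 or replicate 2 alone, the values against the floor were 64000-fold or 93600-fold for Dppa5a and 1190-fold or 1760-fold for Dppa3. The ratios were 3210 or 7430 for Dppa2 and 2680 or 3640 for Dppa4. Each gene passed the filter of 10 summed reads through the naive libraries alone, so no test of this comparison is given.

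In MEF P-bodies Dppa5a and Dppa3 likewise had 0 reads, and Dppa2 and Dppa4 had at most 6 reads and 1 read in a library. At day 3 with the control, Dppa5a was present in P-body RNA, with 328 and 466.75 estimated reads, and nearly absent from cytoplasm, with 0 and 3 reads. The ratio was 310, with a 95% exact Poisson interval of 106 to 1500 from the 3 cytoplasmic reads. This interval pools the libraries of a group and covers counting error only, not the spread between libraries. Dppa5a passed the filter of 10 summed reads through its P-body libraries alone, so its test is not used here, and the other members did not pass it. Dppa3 had 1 and 7 reads in P-bodies and 0 in cytoplasm, Dppa2 had 0 and 4 reads in P-bodies and 2 and 0 in cytoplasm, and Dppa4 had 0 reads in all 4 libraries. Compared with the 0 reads of MEF P-bodies, Dppa5a in day 3 control P-bodies was 300-fold higher against a floor of 3 reads over the group. The lower end of the 95% exact Poisson interval was 244-fold.

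The day 3 values of Dppa5a were far below those of ES cells, at 20.6 and 38.9 CPM per kb in control P-bodies against 2895 and 2928 in naive P-bodies, a difference given here without a test. With the Nudt21 knockdown, Dppa5a had 99.83 and 108 reads in P-bodies and 5 and 0 in cytoplasm. The ratio was 36.4, with a 95% exact Poisson interval of 15.6 to 112, which again covers counting error only. Here too Dppa5a passed the filter through its P-body libraries alone. Dppa2 and Dppa4 were at low counts in both fractions, with 6 and 5 P-body reads against 13 and 7 cytoplasmic reads for Dppa2 and 3 and 15 against 1 and 5 for Dppa4. Both day 3 conditions thus had more Dppa5a reads in each P-body library than in each cytoplasm library. This is the opposite order to that of naive and primed ES cells. The day 3 cytoplasm was also sampled before the sort and still held P-bodies. The cause of the near absence of Dppa5a reads from it was not tested.

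**Figure D5:**
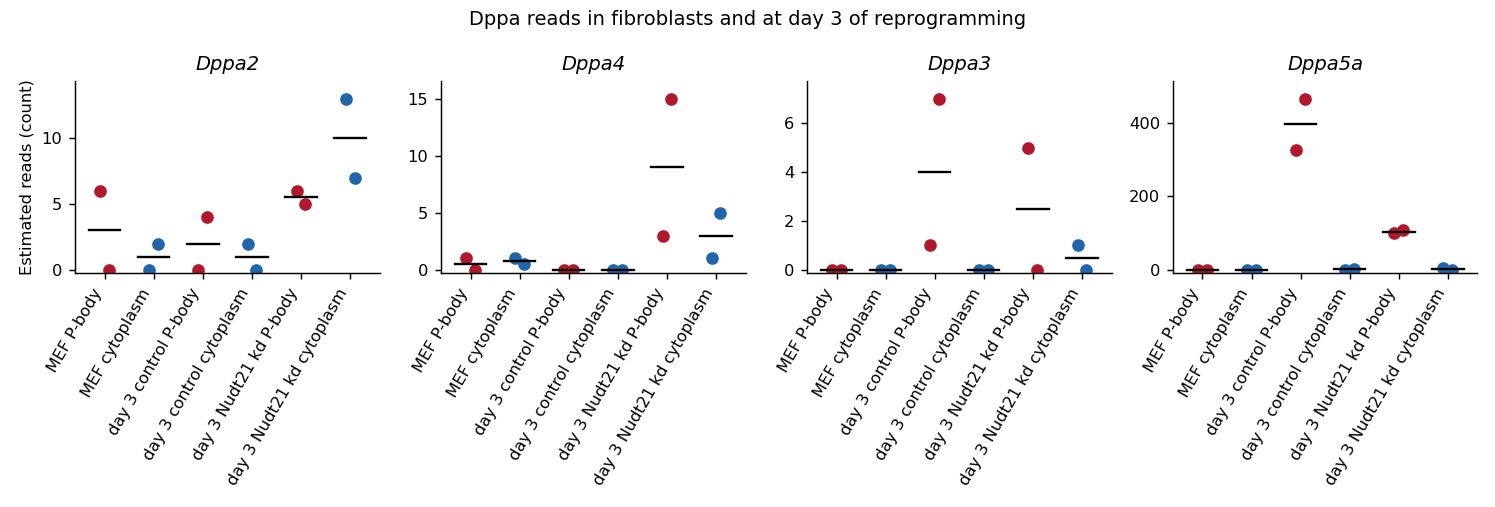
Estimated reads of the 4 Dppa genes in P-body (red) and cytoplasm (blue) libraries of MEFs and of day 3 reprogramming cells as controls or with Nudt21 knocked down (kd), on linear axes that differ between genes. Each point is 1 library and the black line is the mean of 2. Dppa5a reaches 328 and 466.75 reads in day 3 control P-bodies and at most 5 reads in any cytoplasm library, whereas the other genes stay at 15 reads or fewer.

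Other markers of pluripotent cells were read in the same libraries. In day 3 control P-bodies Esrrb had 5 and 3 reads, Prdm14 0 and 3, Lin28a 0 and 3, Zfp42 25 and 0, Nr0b1 10 and 16 and Utf1 16 and 34. In their cytoplasm Esrrb, Prdm14 and Lin28a had 0 reads in both libraries, Zfp42 2 and 15, Nr0b1 12 and 10 and Utf1 20 and 19. Tfcp2l1 had 31 and 34 reads in these P-bodies and 40 and 35 in the cytoplasm. Klf2 and Tbx3 were also expressed in MEFs, at 967 and 952 reads of Klf2 and 623 and 673 of Tbx3 in MEF cytoplasm. In day 3 controls Klf2 had 129 and 110 reads in P-bodies and 158 and 119 in cytoplasm. Tbx3 had 143 and 99 in day 3 control P-bodies and 295 and 302 in their cytoplasm. Day 3 control P-bodies held 794.75 reads of Dppa5a and 0 of Dppa4. The ratio of Dppa5a to Dppa4 reads varied widely between ES cell groups. It was 18.8 and 19.6 in naive P-bodies, 47.7 and 51.4 in naive cytoplasm and 5.5 and 6.0 in primed P-bodies. In Ago2 KO P-bodies it was 117.6 and 88.1. The source of the day 3 Dppa5a reads was not tested. Pou5f1, Sox2 and Klf4 are part of the reprogramming cassette and so do not report on the endogenous genes. With the Nudt21 knockdown, Nr0b1 reached 333 and 489 reads in P-bodies and 355 and 223 in cytoplasm, so that both fractions held it, unlike Dppa5a.

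Genes that work with or under the DPPA proteins were followed as lists. Among 14 tested target genes of DPPA2 and DPPA4 in the 2-cell-like state, 0 were called in naive P-body enrichment by edgeR, against 1 by DESeq2 and 2 at an unadjusted p under 0.05, and the median log2 (FC) was 0.18 beside −0.06 for all genes, where 38% of tested genes were called. These counts followed the naive cytoplasm library, as 3 were enriched and 5 depleted without replicate 1 and 8 enriched and 0 depleted without replicate 2, where edgeR called 62.9% and 66.1% of all tested genes. In primed cells 3 of the 14 were P-body-depleted, all from the Usp17l family, where 24.2% of all tested genes were called lower, with a median of −0.16 beside 0.00. The lowest was Usp17le at −0.80 (edgeR adjusted p = 0.0001446), and members of this family and of the Zscan4 cluster are near-identical copies whose reads may have been divided. Of 12 chromatin partners of DPPA2 and DPPA4, 6 were enriched and 3 depleted in naive cells, led by Kmt2a, a histone methyltransferase, at 1.44, and by its relative Kmt2d at −1.28, with a median of 0.42, beside 38% of all tested genes called. Without naive cytoplasm replicate 1 the median of the 12 was 0.465, and without replicate 2 it was 0.313. In primed cells 5 were enriched and 4 depleted, with Eed, a Polycomb subunit, at 0.92, Kmt2d at −1.36 and a median of 0.02, beside 50.8% of all tested genes called.

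The 11 genes listed as partners of DPPA3 are linked to DNA methylation. In naive cells 5 were enriched and 1 depleted, with a median of 0.71, beside 38% of all tested genes called. Without naive cytoplasm replicate 1 the median of the 11 was 0.48, and without replicate 2 it was 1.06. Tet2, which oxidises methylated cytosine, was the highest at 2.45, and Trim28, a corepressor at imprinted regions, the lowest at −0.95. In primed cells 3 were enriched and 5 depleted, with Tet2 at 1.84, the methyltransferase gene Dnmt3a at −1.49 and a median of −0.11, beside 50.8% of all tested genes called. Between states the enrichment of 7 of the 11 differed, of which 6 were higher in naive cells, led by Dnmt3a at 2.74, and Trim28 was lower at −0.64, where 25.3% of all tested genes were called. The median difference of the 11 was 0.47, and it was 0.43 without naive cytoplasm replicate 1 and 0.92 without replicate 2. Uhrf1, the target of DPPA3, had −0.11 in both states and was not called. Of 8 KH domain relatives of DPPA5A and partners in their oocyte complex, 4 were tested. Khdc3 was P-body-depleted in naive and primed cells, at −2.73 and −3.90. Tle6 was depleted in naive cells at −0.79, with a difference between states of −1.19. Called genes made up 38% of all tested genes in naive cells, 50.8% in primed cells and 25.3% between states. The median of the 4 in naive cells was −0.58, and it was −0.82 without naive cytoplasm replicate 1 and −0.74 without replicate 2. In all 4 lists 0 genes were called for a change in ribosome occupancy with DDX6 loss by edgeR or DESeq2, and at an unadjusted p under 0.05 there were 2 target genes, 1 chromatin partner, 4 DNA methylation genes and 0 KH domain relatives.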

How the data were processed

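For the P-body and cytoplasm fractions the authors made Smart-seq libraries from poly(A) RNA, aligned them to mm10 with hisat2 and counted reads on refGene exons with featureCounts. These deposited estimated counts were not whole for 17.6% to 25.7% of values per library, and how shared reads were divided and whether strand was used are not given in the sources used here. The polysome and total RNA values are expected counts that the authors deposited from salmon (nf-core pipeline, refGene genes, 5.05% to 6.19% not whole), and the Ago2 KO values are deposited salmon expected counts with Ensembl identifiers (11.6% to 13.1% not whole). All were rounded to whole numbers for testing. The 10 tables of the authors' own comparisons, which hold fold changes and adjusted p-values, were not used. The number of other columns with values of single samples that went unused was 0.

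Groups and replicate numbers came from the sample titles. The 15 comparisons were fitted over all genes whose reads summed to 10 or more in the fitted libraries, using edgeR's quasi-likelihood test (version 4.0.16, R 4.3.3) after TMM scaling, two-sided, and a gene was called at a Benjamini-Hochberg adjusted p under 0.05 over all genes tested. Enrichment is P-body over cytoplasm, ribosome occupancy is polysome over total RNA, and differences between conditions are interaction contrasts. Levels of single libraries are CPM by library total, divided by the transcript length in kb. SE and 95% intervals come from the test statistic of the same fit. Exact Poisson intervals use the reads of the lower group. The 4 genes, the 4 lists of related genes and the marker lists were chosen with earlier results of these data known. Named genes are the 4 members, the called gene at each end of a list and the 3 genes closest to each member by Pearson correlation of log2 CPM (prior count 2). Other genes named from the lists and the marker genes at day 3 were named after their values were seen. Alternatives were DESeq2 (version 1.42.0), its size factors in edgeR, library totals, filterByExpr, no filter, a replicate block, all groups of a table in 1 fit, and leaving out each library. Counts and medians of the lists, and ratios to MEFs, with 1 naive cytoplasm library were added after seeing the data. Transcripts, coordinates and sequences are from GENCODE M21 on GRCm38, read and aligned with Biopython 1.88 (Python 3.11.15), and figures were drawn with matplotlib 3.10.9. The fitting code was tested on simulated data.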

Additional observations from a re-analysis of the deposited data

Results flagged for a closer look

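The enrichment of Dppa3 in P-bodies was flagged because it differed between naive and primed ES cells when the difference itself was tested. The difference, naive minus primed, was −0.80 ± 0.24 on the log2 scale, with an edgeR adjusted p of 0.0373 as an interaction over 8 libraries. The state values were −0.48 in naive and 0.18 in primed cells, and neither was called on its own. The call was lost under 10 of the alternatives, and the cause was not tested.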

How the results depend on the processing

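Of the values of single Dppa genes under alternatives, 524 kept direction and call, 29 lost the call, 25 gained it and 16 changed sign. These counts include naive against MEF cytoplasm and the day 3 enrichments, whose tests are not used above. There a gene passed the filter through 1 group alone or had low counts, so a kept call or direction says little. With library totals in place of TMM scaling, the median over all genes moved from −0.06 to −0.28 in naive enrichment, from 0.00 to −0.20 and from −0.04 to −0.27 in naive against primed cytoplasm and P-bodies, and from 0.02 to 0.19 and from 0.02 to 0.21 in control and degron occupancy. Naive Dppa4 was then 0.28 (not called) and Dppa3 −0.70 (called), Dppa2 and Dppa3 in naive against primed P-bodies were 0.06 and 0.11 (not called), day 3 control Dppa5a was 8.21 (not called, a test the comparison above does not use), and Dppa4 occupancy was 0.20 in control and 0.15 in degron cells (both called). Fitting all groups of a table together gave uncalled values of 0.51 and 0.31 for naive and primed Dppa4, −0.68 for the Dppa3 difference between states, and 0.44, −0.05 and 0.49 for Dppa2, Dppa4 and Dppa3 in naive against primed P-bodies, and a called value of 1.05 for Dppa2 in naive against primed cytoplasm. The Dppa3 difference was also lost with DESeq2 size factors (−0.72), filterByExpr (−0.69) and no filter (−0.68). Dppa2 in naive against primed cytoplasm was called by DESeq2 (1.03) and with no filter (1.05), and in Ago2 KO enrichment by DESeq2 (1.0) and with no filter (1.02). The Dppa2 change in occupancy with DDX6 loss was 0.00 with library totals and with no filter. In each case the cause was not tested.

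Leaving out 1 library changed a call or a sign within the following ranges. Naive enrichment ran from −1.08 to −0.60 for Dppa5a, 0.33 to 0.71 for Dppa4, 0.11 to 1.26 for Dppa2 and −0.70 to −0.20 for Dppa3, and primed Dppa4 from 0.21 to 0.35. Their differences ran from −1.02 to −0.53 for Dppa3, −1.20 to −0.06 for Dppa2, −0.39 to 0.09 for Dppa5a and −0.09 to 0.28 for Dppa4. Naive against primed cytoplasm ran from 0.35 to 1.49 for Dppa2, 0.87 to 1.37 for Dppa3 and −0.47 to −0.09 for Dppa4, and naive against primed P-bodies from −0.27 to −0.13 for Dppa4. Ago2 KO values ran from 0.77 to 1.18 for Dppa2, 0.26 to 1.05 for Dppa3, 0.40 to 0.78 for Dppa4 and 0.29 to 1.10 for Dppa5a. Control occupancy ran from 0.16 to 0.25 for Dppa2 and −0.01 to 0.06 for Dppa4, its change with DDX6 loss from −0.05 to 0.04 for Dppa2, and total RNA from −0.03 to 0.07 for Dppa5a and −0.07 to 0.05 for Dppa3.

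The replicate number was also fitted as a block. The labels do not state what the number marks, although the study sorted P-bodies from the cytoplasmic fraction stored beside them. Deviations of same-numbered libraries correlated at −0.06 in naive, 0.08 in primed, 0.54 in Ago2 KO, 0.17 in day 3 control and 0.20 in Nudt21 knockdown fractions. In polysome and total RNA they correlated between −0.003 and 0.32. With the replicate block Dppa2, Dppa3 and Dppa4 were called in Ago2 KO enrichment, at 1.05, 0.71 and 0.66, and Dppa2 in naive against primed cytoplasm at 0.94. The block changed no other call of a Dppa gene.

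Counts of called genes moved by over 1.5 times in some settings. Ago2 KO enrichment called 1095 genes, against 1731 by DESeq2, 716 with its size factors, 2643 with no filter and 4178 with the block. Day 3 control enrichment called 102, against 2105 by DESeq2, 0 with library totals (3767 at an unadjusted p under 0.05), 202 with filterByExpr, 1940 with no filter, 802 with the block and 3308 in 1 fit of all groups. That fit called 5128 in place of 8212 genes in primed enrichment and 2101 in place of 3501 in Nudt21 knockdown. Degron against control total RNA called 509, against 832 by DESeq2, 863 with no filter, 82 with the block and 1138 in 1 fit of all groups. The change in occupancy called 0, against 4 by DESeq2, 16 with no filter and 6 with the block. Library totals turned the split of higher and lower genes from 3527 and 2414 to 2876 and 4055 in naive enrichment, from 2891 and 3719 to 5166 and 2751 in control occupancy and from 3759 and 4194 to 6133 and 2995 in degron occupancy. Leaving out 1 library gave 2056 to 10018 called genes in naive enrichment, 2295 to 7088 in the difference between states, 2242 to 9799 in naive against primed cytoplasm, 446 to 5617 in Ago2 KO, 82 to 8752 in day 3 control and 1017 to 5729 in Nudt21 knockdown enrichment, 6 to 3373 in degron total RNA and 0 to 51 in the change in occupancy. The depth of the MEF and day 3 cytoplasm limits Dppa3 and Dppa4 there to levels at or under 3 reads per group in control cells.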

Other observations

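Dppa1, a gene of the same naming series that was picked out after its values were seen, had 51 estimated reads in naive cytoplasm replicate 1 and 3 in replicate 2. The naive P-body libraries held 3 and 1 reads of it, and no primed, MEF or day 3 library held more than 1. It had at most 4 reads in any polysome or total RNA library and 4 to 12 in the Ago2 KO libraries. Naive cytoplasm replicate 1 is also the library in which all 4 genes described above were lower than in replicate 2.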
